A study of Mus musculus with 12 samples.

Results

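In the mouse ovary, 70 transcripts had higher values in mural granulosa cells after gonadotropin stimulation while their values in cumulus cells stayed nearly level. They were 70 of the 27365 Ensembl transcripts with distinct values on the arrays. The members were chosen from the group means alone. The highest of the 4 group means had to be at least 8 on the log2 scale, the stimulated mean had to exceed the unprimed mean by at least 1 in mural cells, and the same difference in cumulus cells had to lie between -0.4 and 0.4. The changes with stimulation, and the difference between the 2 changes, therefore describe how the members were chosen and are given without a test. Another 2 transcripts met these limits and were left out by the rule. The values are log2 values of probe sets on Affymetrix arrays, so a difference of 1 is a 2-fold difference.

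The study measured RNA from stimulated mural cells, unprimed mural cells, stimulated cumulus cells and unprimed cumulus cells, with 3 arrays in each group. All mice were B6SJLF1 animals aged 22 days. Stimulated mice had been injected with 5 IU of equine chorionic gonadotropin (eCG, also named PMSG) 44 hours before collection, and unprimed mice had not. Each replicate came from a pool of 5 mice, with 200 cumulus-oocyte complexes behind each cumulus sample and a similar mass of mural cells. Mural and cumulus cells were collected at the same time, but which mural and cumulus samples came from the same pool is not stated in the labels. Only complexes with a tightly packed cumulus and mural clumps of healthy colour were taken.

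Granulosa cells nourish the oocyte and make the steroid hormones of the follicle. Follicle-stimulating hormone, whose action eCG has, works on them through a receptor that raises cyclic AMP. Mural cells line the follicle wall next to the blood supply and take on the endocrine role of the follicle, whereas cumulus cells surround the oocyte, which sends them factors that restrain part of that programme. The files do not pair the transcript identifiers with gene names, and 0 of them matched the RefSeq gene table, so roles and pathways of the members, marker genes of the labelled cell types and promoter sequences are not given here.

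The array medians lay between 7.30 and 7.38. Correlations between replicates over the distinct transcripts were 0.994 to 0.995 in stimulated mural cells, 0.988 to 0.995 in unprimed mural cells, 0.993 in stimulated cumulus cells and 0.995 to 0.997 in unprimed cumulus cells. Unprimed mural replicates were thus the least alike. A level above which a transcript was treated as measured, the 40th percentile of each array, lay between 6.66 and 6.73. In RNA from whole cell samples, fewer cells that carry a transcript and less of it in each cell cannot be told apart.

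The transcripts that changed in mural cells without a like change in cumulus cells were part of a wider set. Of the transcripts with a highest mean of at least 8, which numbered 11794, the mural difference was at least 1 in 250. Beside the members, these included 80 whose cumulus difference was also at least 1, 93 with a cumulus difference between 0.4 and 1, and 5 with one of -0.4 or below. The limits of the rule cut through a continuous cloud, as the scatter of the changes in both cell types shows. The members nearest the mural limit had differences of 1.00 and 1.00, and the nearest transcripts outside it 1.00 and 0.99, all within 0.01 of the limit. At the cumulus limit the nearest values were 0.39 and 0.38 inside and 0.40 and 0.40 outside. At the limit on the highest mean they were 8.01 and 8.10 inside and 7.99 and 7.83 outside, and 41 transcripts met both limits on change with a highest mean under 8.

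**Figure D1:**
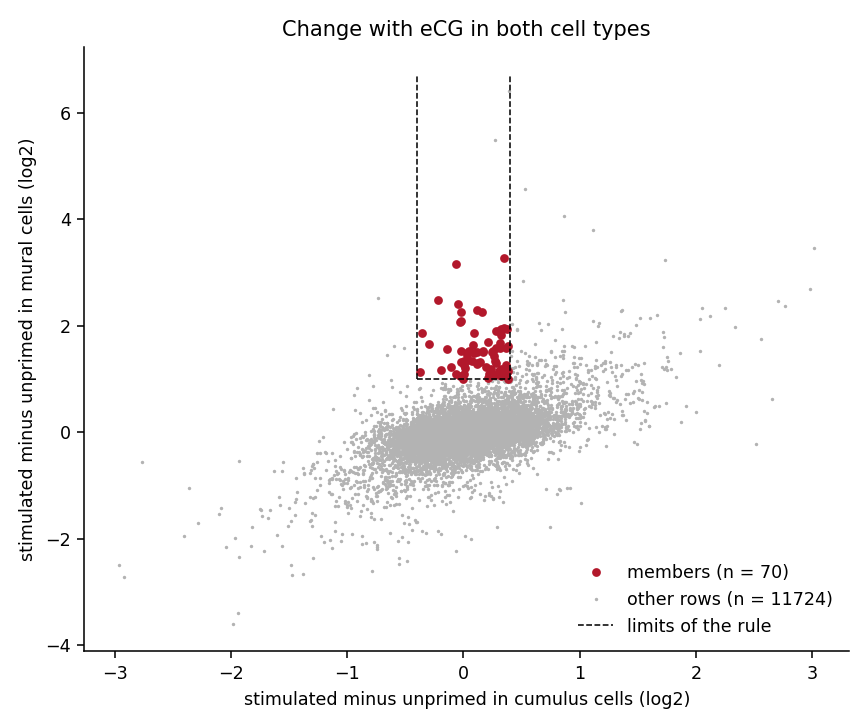
Stimulated minus unprimed difference (log2) in cumulus cells (x axis) and in mural cells (y axis) for the 11794 transcripts with a highest group mean of at least 8. The 70 members (red) fill the box drawn by the rule, and 93 grey points with a mural difference of at least 1 lie just to its right, at cumulus differences of 0.4 to 1. The 2 grey points inside the box are the transcripts that the rule left out.

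The mural difference of the members ranged from 1.00 to 3.28, and its median was 2.82-fold. It was at least 2 in 9 members, between 1.5 and 2 in 25 and below 1.5 in 36. The stimulated mural arrays all lay above the unprimed mural arrays in 68 members and overlapped with them in 2. Of the 16809 transcripts that passed the filter on low values 12.6% had this separation, and of those with a highest mean of at least 8 it was 13.4%. Since the rule used these values, the counts only describe the members. The median SD between replicates over the members was 0.198 in stimulated mural, 0.207 in unprimed mural, 0.178 in stimulated cumulus and 0.121 in unprimed cumulus cells.

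The largest mural change belonged to ENSMUST00000034874. It read 12.04, 11.44 and 12.37 on the stimulated mural arrays, against 7.47, 9.85 and 8.70 on the unprimed mural arrays. In cumulus cells it read 7.00, 6.71 and 6.51 after stimulation, against 6.35, 6.23 and 6.58 in unprimed mice. Every mural array lay above every cumulus array, and both mural groups were apart from each other although the unprimed mural replicates spread over more than 2 log2 units. The group means were 11.95 ± 0.47 in stimulated and 8.67 ± 1.19 in unprimed mural cells (SD, n = 3 each), a difference of 3.28 or 9.69-fold. Left-out arrays moved this difference between 2.68 (unprimed mural replicate 1 absent) and 3.86 (unprimed mural replicate 2 absent). The cumulus difference was 0.35, and it passed the limit of the rule without stimulated replicate 3 (0.47) or without unprimed replicate 3 (0.45). Its unprimed cumulus values lay below the filter level, so the size of the cumulus difference is not exact.

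ENSMUST00000016638 had the next largest mural change. It read 9.68, 9.19 and 9.06 on stimulated mural arrays, against 5.95, 5.77 and 6.76 on unprimed mural arrays. Its cumulus values were 5.09, 4.86 and 4.89 after stimulation, against 5.16, 4.76 and 5.09 in unprimed mice. The stimulated mural group stood apart from all other arrays, where the transcript was above the filter level on 1 array only. The cumulus means of 4.94 ± 0.13 and 5.01 ± 0.21 in stimulated and unprimed mice lay near the low end of the scale, where probe sets for the bacterial sequence trpn averaged 4.54 and 4.55 on the same arrays. Of its unprimed mural values only 6.76 lay above the filter level, so the mural difference of 3.15 is not exact either. It ranged from 2.96 to 3.45 when each array was left out in turn.

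**Figure D2:**
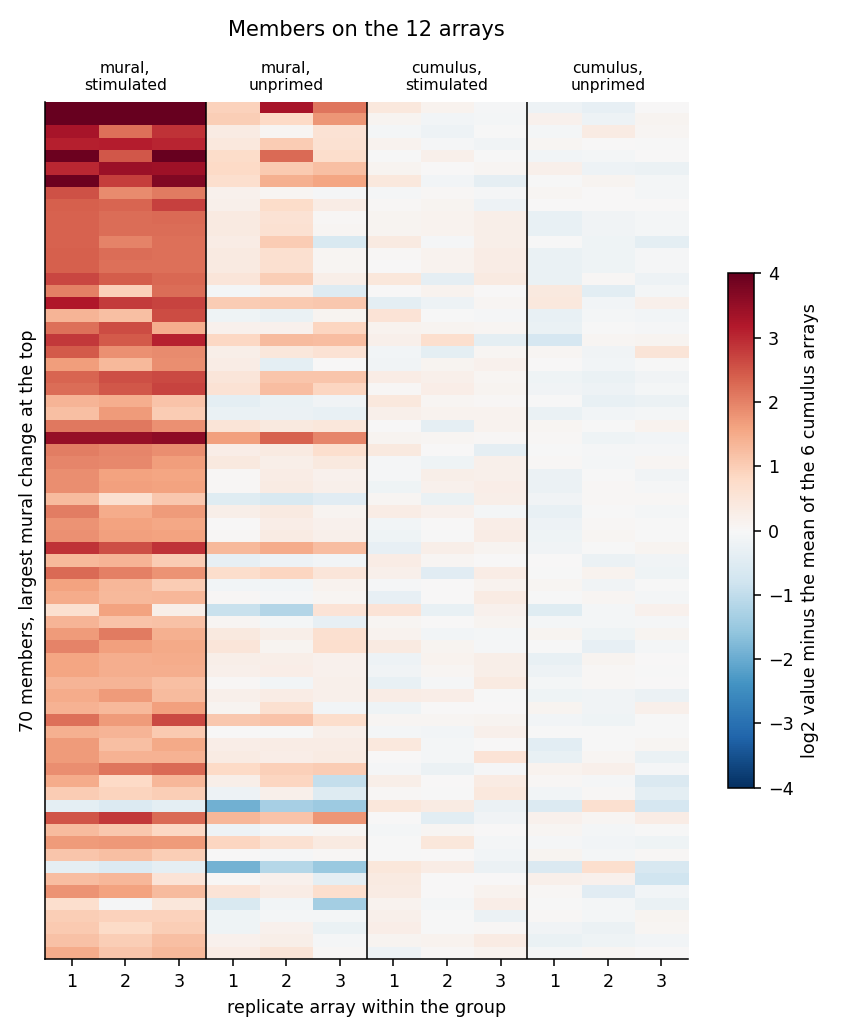
Value of each of the 70 members (rows, largest mural change at the top) on each of the 12 arrays (columns, by group and replicate), shown as the log2 value minus the mean of the 6 cumulus arrays of that transcript. Colours end at a difference of 4 in either direction. The stimulated mural columns are red in nearly all rows, the unprimed mural columns are mostly paler, and both cumulus groups stay near 0 by the rule.

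How the members were measured in cumulus cells differed among them. In 47 members all 6 cumulus arrays lay above the filter level, in 11 some did and in 12 none did. In the 12 with none, a change in cumulus cells is measured with little precision. By the size of the mural difference, 6 of the 9 members with one of at least 2 were above the filter level on no cumulus array, against 4 of the 25 between 1.5 and 2 and 2 of the 36 below 1.5. In mural cells of unprimed mice 57 members were above the filter level on all arrays and 4 on none. Above it on stimulated mural arrays alone were 3 members.

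The cumulus difference of the members had a median of 0.16 and ran from -0.37 to 0.39. It was above 0 in 53 members and below 0 in 17, and it was 0.3 or more in 19 members but -0.3 or less in 2. Among the 8881 transcripts with a highest mean of at least 8 and a cumulus difference within the same limits, 46.9% were above 0, with a median of -0.02. All stimulated cumulus arrays lay above all unprimed cumulus arrays in 16 members, where the share was 21.3% of the transcripts tested and 24.7% of those with a highest mean of at least 8. Stimulated arrays all lay below the unprimed ones in 1 member, against shares of 19.7% and 21.4%. All these shares include transcripts with cumulus differences outside the limits of the rule, so they come from an unlike set. The bacterial RNA controls dap, lys, phe and thr, which are commonly added before amplification, were higher on the same arrays, at 8.61 ± 0.18 in stimulated and 7.69 ± 0.11 in unprimed cumulus cells (mean of 24 probe sets; SD, n = 3 each). In mural cells they read 7.63 ± 0.10 after stimulation and 7.46 ± 0.33 in unprimed mice. The hybridization controls changed by -0.06 in mural and by 0.36 in cumulus cells. The gap between 3′ and 5′ probe sets for Gapdh, a sign of RNA quality, changed by -0.36 in mural and by -0.33 in cumulus cells. For beta-actin the same gap changed by -0.03 in mural and by 0.17 in cumulus cells. When the mean of the controls entered the fit as a covariate, the median cumulus difference of the members was 0.07 and the median mural difference 1.46. The part of the bacterial controls in the level cumulus values was not tested beyond this fit, and that of the other controls was not tested.

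The next question was how the 2 cell types stood to each other before and after stimulation. Both comparisons share arrays with the changes that chose the members, so they are given as values. In stimulated mice the mural mean exceeded the cumulus mean in 68 of 70 members, and the median difference was 1.61. It was at least 1 in 60 members, at least 2 in 26 and at least 3 in 8. In unprimed mice the mural mean was higher in 56 members and lower in 14, with a median difference of 0.32, and it was at least 1 in 12 members and at least 2 in 2. Over all transcripts with a highest mean of at least 8 the median difference was -0.07 in stimulated and -0.06 in unprimed mice.

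Before stimulation the members fell into 3 classes by the overlap of the arrays. In 39 members all unprimed mural arrays already lay above all unprimed cumulus arrays, where 17.8% of the transcripts tested and 18.3% of those with a highest mean of at least 8 did so. Their median excess in mural cells was 2.11 in stimulated and 0.56 in unprimed mice, and in all 39 the stimulated mural and cumulus arrays did not overlap either. In 28 members the unprimed arrays of the cell types overlapped, and the difference there lay between -0.58 and 0.43 with a median of 0.02. After stimulation 26 of these 28 had all mural arrays above all cumulus arrays, with a median difference of 1.28 over the 28. In the remaining 3 all unprimed mural arrays lay below all unprimed cumulus arrays, against shares of 24.4% and 27.9%. After stimulation, all mural arrays lay above all cumulus arrays in 66 members altogether, against shares of 21.4% and 22.4%, and below them in 2, against shares of 29.9% and 34.2%.

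**Figure D3:**
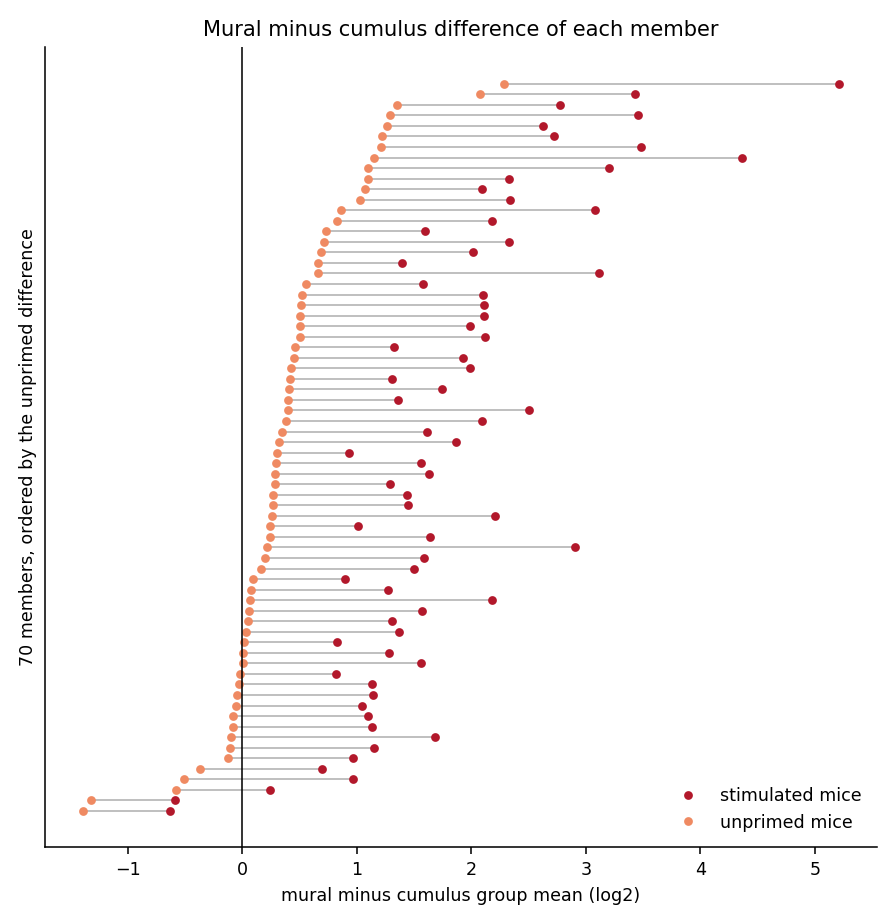
Mural minus cumulus difference of the group means (log2) for each of the 70 members, in stimulated mice (dark red) and unprimed mice (orange), joined by a grey line and ordered by the unprimed difference. The unprimed points run from -1.39 to 2.29 and the stimulated points from -0.63 to 5.21, and 2 members at the bottom stay left of 0 at both stages.

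The members were also grouped by the size of the mural change, and the medians of the gap before stimulation ran in the same order. The median mural excess in unprimed mice was 1.10 in the 9 members with a mural difference of at least 2, 0.43 in the 25 between 1.5 and 2 and 0.22 in the 36 below 1.5. In stimulated mice the medians of the same tiers were 3.20, 1.99 and 1.31. The mural change is part of the stimulated gap, so this second order follows in large part from how the tiers were cut. Since 6 of the 9 in the first tier were not all above the filter level on the unprimed mural arrays, their unprimed gaps are the least exact.

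The test that the rule left free was the difference between the cell types averaged over both stages, which with equal group sizes is orthogonal to the changes that chose the members. A value above 0 means that the cumulus level lay below the midpoint between the stimulated and the unprimed mural level. The limit on the highest mean uses levels and so is not fully separate from it. Because the stimulated stage enters the average, a member with equal levels in unprimed mice already lies above 0 in this measure. Thus the count below describes where the cumulus level lay and adds no evidence for the change itself. In limma, fitted to all 12 arrays and adjusted over 16809 transcripts, 64 members were higher in mural cells, 2 were lower and 4 were not called. The shares of all transcripts tested were 21.1% called higher and 28% called lower, and of those with a highest mean of at least 8 these shares were 22.4% and 32.7%. The median averaged difference was 0.97 over the members and -0.04 over all transcripts tested. The 4 members not called had averaged differences of -0.17, 0.17, 0.23 and 0.63. All 70 members passed the filter on low values. Of the 47 above it on all 12 arrays, 41 were higher and 2 lower in mural cells, and 4 were not called. The 23 below it on at least 1 array were all called higher. Among these, 12 were above it on no cumulus array and passed the filter through mural arrays alone. Of the other 11, several were above it on only 1 or 2 cumulus arrays, fewer than the 3 arrays required. These too passed the filter only because of their mural arrays. The calls of both kinds rest on cumulus values measured with little precision and add no support for a difference. ENSMUST00000034874 was above the filter level on 1 of its 6 cumulus arrays, and ENSMUST00000016638 on no cumulus array. Neither would have passed the filter without its mural arrays, so their averaged differences are not given. With the bacterial controls as a covariate 51 members were called higher, 0 lower and 19 not at all, where 8.78% of all transcripts tested were called higher and 6.73% lower.

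Both members that were lower in mural cells are named here after their values were seen. ENSMUST00000139268 read 10.09, 9.94 and 10.09 on stimulated mural arrays, against 8.55, 9.14 and 9.02 on unprimed mural arrays. Its cumulus values were 10.94, 10.81 and 10.27 after stimulation, against 9.94, 11.13 and 9.82 in unprimed mice. The mural arrays lay below the cumulus arrays at both stages, and the gap narrowed to -0.63 in stimulated mice, against -1.39 in unprimed mice. The averaged difference was -1.01 ± 0.21 (SE; limma adjusted p = 0.00155). ENSMUST00000042105, which shared its values with other transcripts (3 in all), read 10.05, 9.86 and 10.05 on stimulated mural arrays, against 8.51, 9.27 and 8.93 on unprimed mural arrays. Its cumulus values were 10.85, 10.70 and 10.18 after stimulation, against 9.81, 11.09 and 9.77 in unprimed mice. As in the first of the pair, the mural arrays lay below the cumulus arrays at both stages. Its averaged difference was -0.96 ± 0.22 (SE; limma adjusted p = 0.00305). The deviations of these 2 from their group means correlated at 0.991 over the 12 arrays, so they may not be separate measurements. Their place within the rule rested on single arrays. The cumulus differences were 0.79 and 0.78 once unprimed cumulus replicate 2 was left out, and 0.58 and 0.55 once stimulated cumulus replicate 3 was left out. The mural differences were 0.96 and 0.89 once unprimed mural replicate 1 was left out. With the bacterial control covariate neither averaged difference was called, at -0.82 (limma adjusted p = 0.234) and -0.64 (limma adjusted p = 0.376).

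**Figure D4:**
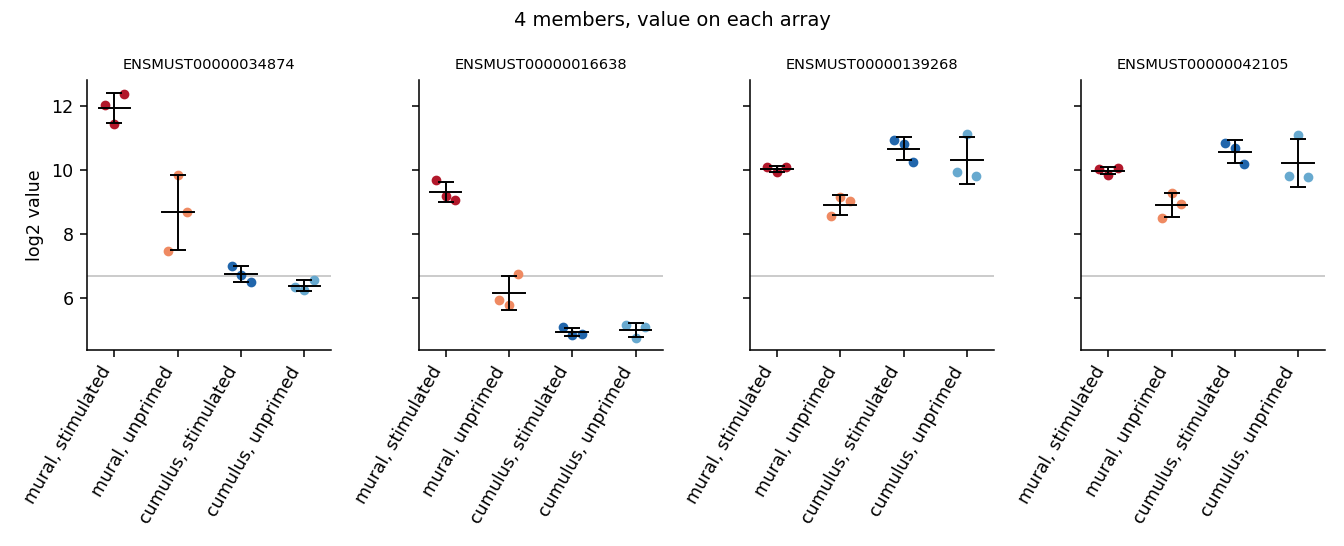
Log2 value on each array (points) of the 2 members with the largest mural change and the 2 members that were lower in mural than in cumulus cells, with the mean and SD of each group of 3 arrays (black bars). The grey band spans the filter levels of the arrays, 6.66 to 6.73. The first 2 stand far above the band in stimulated mural cells and below or near it in cumulus cells, and the last 2 stay above it on all arrays.

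Sets of transcripts chosen by like limits gave the following averaged differences, and the differences between sets were not tested. Among the members the median was 0.97, with 64 of 70 called higher and 2 called lower. Among the 93 transcripts with a mural rise of at least 1 and a cumulus difference of 0.4 to 1 it was 0.72, with 71 called higher and 8 lower in mural cells. Among the 80 transcripts that rose by at least 1 in both cell types the median was 0.26, with 34 called higher and 11 called lower in mural cells. Among the 54 transcripts with a mural fall of at least 1 and a cumulus difference within 0.4 it was -0.80, with 12 called higher and 36 lower. Among the 45 transcripts with a cumulus rise of at least 1 and a mural difference within 0.4 it was -0.34, with 9 called higher and 23 lower. In the sets that changed in mural cells alone, the cumulus level thus lay below the midpoint of the mural levels in most rising members and above it in most falling ones, a direction that equal unprimed levels alone would also give.

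**Figure D5:**
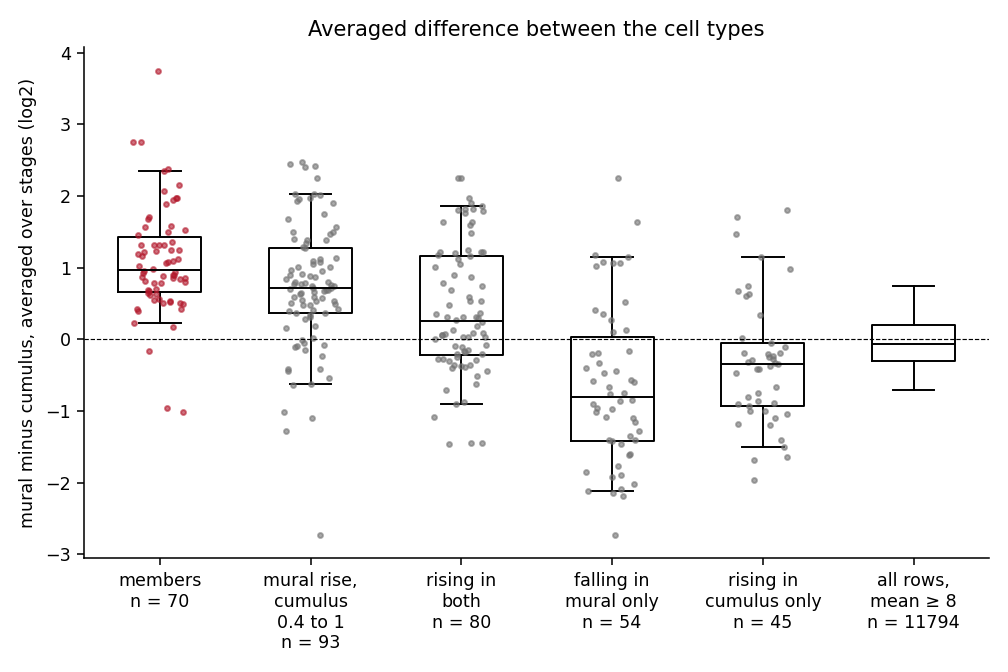
Mural minus cumulus difference averaged over both stages (log2) for the members, for 4 sets chosen by like limits and for all transcripts with a highest group mean of at least 8. Boxes give the median and quartiles, whiskers the 5th and 95th percentiles, and points single transcripts (not drawn for the last box). The members have a median of 0.97, with 2 points near -1, the set with a cumulus difference of 0.4 to 1 a median of 0.72, and all transcripts a median of -0.06.

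The members are not all separate measurements. A member stood for 1 Ensembl transcript in 52 cases and for several with identical values in 18, so the 70 members covered 97 transcript identifiers, at most 5 behind one member. Beyond identical values, 18 members fell into 7 groups with nearly the same profile, taken as a correlation of the deviations from the group means above 0.9 and a root mean square difference below 0.1 log2 units. There were 2 groups of 4 members and 5 groups of 2. Probe sets of transcripts from one gene can share probes, and probe sequences were not used here. With each such group counted once, 59 profiles remained. The median correlation of deviations over all 2415 pairs of members was 0.07.

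Within the groups the replicates did not carry the members equally. Stimulated mural replicate 1 held the highest value of its group in 40 of 70 members (57.1%), against 34.8% of the transcripts with a highest mean of at least 8. Stimulated mural replicate 3 did so in 16 (22.9%), against 43.1%. Unprimed mural replicate 1 held the highest value in 5 members (7.14%), against 25.8%, and replicate 3 in 28 (40%), against 27.1%. Unprimed mural replicate 2 did so in 37 (52.9%), nearer to its share of 47.0%. On the cumulus side, stimulated replicate 1 held the highest value in 28 (40%), against 24.7%, and replicate 2 in 11 (15.7%), against 32.0%. The median deviation of the members from the group mean was largest on stimulated mural replicate 1, at 0.10. When each array was left out in turn, 62 to 89 transcripts met the rule, and 43 of the 70 members met it in all 12 cases. The lowest number came when unprimed cumulus replicate 2 was left out and the highest when unprimed mural replicate 2 was left out. The 43 had mural differences of 1.05 or more with a median of 1.51 and cumulus differences of -0.22 to 0.35. Of these 43, all had their stimulated mural arrays above all stimulated cumulus arrays, where 22.4% of the transcripts with a highest mean of at least 8 did, and 26 had their unprimed mural arrays above all unprimed cumulus arrays, where 18.3% did. Since the rule chose the 43 on these same arrays, both counts only describe them.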

How the data were processed

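RNA of 12 samples was measured on arrays, per the labels after 20 ng of total RNA had been amplified in consecutive rounds, which can alter relative levels. The deposited log2 values were made by the authors with RMA in the affy package, per the submitters' processing notes. RMA makes the array distributions alike. The sources used here give no software versions, array model or probe set definition, and the scale was read from the values. The table held 41179 rows, of which 64 were controls and 41115 Ensembl transcripts. Of rows with identical values the first was kept.

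A linear model with 1 mean per group was fitted with limma 3.58.1 (R 4.3.3) to 16809 transcripts that exceeded the 40th percentile of the array in 3 or more of the arrays. The p-values were adjusted over these transcripts by the method of Benjamini and Hochberg, with a threshold of 0.05. Alternatives were other scalings, filters and weights, a variance trend, a replicate block, a control covariate, stricter limits and leaving out each array. The fit was tested on simulated data. Figures were drawn with matplotlib 3.10.9. The members and lists were chosen with earlier results of these data known. The naming plan allowed at most 2 members by identifier where no gene could be paired. The 2 members with the largest mural change were named under it. The 2 members lower in mural cells were named beyond it, after their values were seen. The planned tests of gene lists and cell type markers and the search for promoter motifs were not run, because no identifier could be paired with a gene. The number of arrays limits the precision.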

Additional observations from a re-analysis of the deposited data

Results flagged for a closer look

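The added bacterial RNA controls changed differently with stimulation in the 2 cell types. The median over 24 control probe sets of the mural minus the cumulus log2 change was -0.82, from a median change of 0.15 in mural and 0.92 in cumulus cells. In limma, adjusted over 64 control probe sets, 19 of the 24 had a lower change in mural than in cumulus cells and 0 a higher one. This touches the cumulus side of the members, and its part in their level cumulus values was not tested beyond the fit with these controls as a covariate. No group held more than 3 arrays, so single arrays far from their group were not tested for.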

How the results depend on the processing

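The number of members called higher in mural cells, averaged over stages, was 64 and lay between 60 and 65 when 1 array was left out, with 2 called lower each time. Without a stimulated mural array 67 members passed the filter. Other scalings, filters, weights, the trend in the variance and every probe set entered gave 63 to 66 higher and 2 lower. The weights were 9.28 for unprimed mural replicate 1, against 0.494 for replicate 2 and 0.360 for replicate 3. Under them the unprimed mural mean thus rested largely on 1 array. With the bacterial control covariate 51 were higher and 0 lower, and over all 16809 transcripts 1475 were higher and 1132 lower, against 3548 and 4703 without it. Of these 51, 50 were also called without it. Over all transcripts tested, the covariate raised the standard error of the cumulus change by a median factor of 2.14. The factor for the averaged difference, on which the calls rest, is not given here. The number of transcripts meeting the rule was 62 to 89 with 1 array left out, 80 after quantile normalization was repeated, 73 with arrays centred on their medians and 72 with cyclic loess, and 69 of the 70 members met it under all 3 scalings. It was 39 with limits of 1.2 in mural and 0.3 in cumulus cells. The median cumulus difference over the members was 0.11 to 0.16 with 1 array left out, 0.16 to 0.18 under other scalings and 0.07 with the covariate, which was chosen for this value after seeing the data. The groups use the same replicate numbers, but the labels do not state which samples came from the same pool. The deviations of same-numbered mural and cumulus arrays correlated at 0.20, 0.15 and -0.13 in stimulated and 0.08, 0.31 and 0.41 in unprimed mice. These values do not settle whether the numbers mark pairs, and the main fit did not take them as pairs. With the replicate block 66 members were called higher and 2 lower. With 3 arrays a group, small averaged differences could be missed.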
